A study of Homo sapiens with 4 samples.

Results

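Genes of the extracellular matrix and of mesenchymal cells were measured in 2 human cutaneous T cell lymphoma lines, MyLa and HH. The 10 genes were 7 collagen chain genes (COL1A1, COL1A2, COL3A1, COL5A1, COL6A1, COL6A2 and COL6A3), the matrix glycoprotein genes FN1 and POSTN, and the actin-binding protein gene TAGLN. Every probe set whose single annotated symbol was one of these genes was taken, which gave 41 of the 54675 probe sets on the array, and all 10 genes had at least 1. MyLa is a line of mycosis fungoides, a T cell lymphoma of the skin, and HH is a line of cutaneous T cell lymphoma. Each line was kept for 40 hours in 0.1% serum, without IL-32γ (control) or with IL-32γ, an isoform of the cytokine interleukin-32, at 5 ng/ml, and 1 array was hybridised per line and condition. With 1 array per condition, differences with IL-32γ inside a line carry no replicate check. Levels are given on the log2 scale for each probe set, and values under 5 were treated as not measured.

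Collagens are trimers of chains wound into a triple helix, made mainly by fibroblasts, smooth muscle and other mesenchymal cells. Type I collagen is usually built of COL1A1 and COL1A2 chains, type III of COL3A1 chains alone, type V of COL5A1 with other chains such as COL5A2, and type VI of COL6A1 and COL6A2 with a longer chain such as COL6A3. Fibronectin, encoded by FN1, links collagens to integrins on cells, and its splice forms are made by many cell types. T cells mostly bind this matrix through integrins and other receptors, and make little of it.

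The lines expressed different members. MyLa had high values of COL1A1, COL3A1 and FN1, which lay at or near the lowest values of the array in HH for most of their probe sets. HH had a high value of COL6A3, which lay at the lowest value in MyLa. No probe set of COL1A2, COL5A1, COL6A1 or COL6A2 reached 5 on any array. TAGLN was measured in both lines and was higher in MyLa, and POSTN was measured on the MyLa control array alone. Of the 41 probe sets, 15 reached 5 on at least 1 array, 13 of them on both MyLa arrays and 3 on both HH arrays. The other 26 stayed below 5 throughout, and 22 lay within 0.1 of the array's lowest value of 2.13 on all 4 arrays. Over all probe sets other than array controls, 48.0% reached 5 on at least 1 array and 40.5% lay within 0.1 of the lowest value on all 4.

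Promoter sequences upstream of 4 members are shown because these genes hold the contrasts of the data: FN1 was measured mainly in MyLa, COL6A3 in HH alone, its partner chain COL6A2 in neither, and POSTN only just. Of the 10 genes, 5 had a window in the RefSeq promoter table of GRCh38.p14, and the 250 bases before the annotated start are given 5′ to 3′ on the gene's strand. Capitals mark matches, on either strand, to the TATA box core TATAAA, the CCAAT box CCAAT and the cyclic AMP response element TGACGTCA.
FN1 (chr2:215436069-215436318, minus strand): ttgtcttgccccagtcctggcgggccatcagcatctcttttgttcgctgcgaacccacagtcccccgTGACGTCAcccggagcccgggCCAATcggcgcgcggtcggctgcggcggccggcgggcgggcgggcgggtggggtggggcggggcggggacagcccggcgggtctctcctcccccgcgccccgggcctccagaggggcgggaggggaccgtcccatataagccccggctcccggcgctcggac
COL6A3 (chr2:237414165-237414414, minus strand): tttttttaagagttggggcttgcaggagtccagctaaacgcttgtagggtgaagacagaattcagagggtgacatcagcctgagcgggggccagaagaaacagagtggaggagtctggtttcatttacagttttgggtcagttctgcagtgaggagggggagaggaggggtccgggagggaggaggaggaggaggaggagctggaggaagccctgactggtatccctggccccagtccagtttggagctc
COL6A2 (chr21:46097862-46098111, plus strand): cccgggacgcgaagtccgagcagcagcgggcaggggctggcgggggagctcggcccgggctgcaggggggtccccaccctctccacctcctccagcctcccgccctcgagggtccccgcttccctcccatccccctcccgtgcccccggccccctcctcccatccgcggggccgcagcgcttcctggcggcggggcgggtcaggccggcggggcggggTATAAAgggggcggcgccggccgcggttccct
POSTN (chr13:37598769-37599018, minus strand): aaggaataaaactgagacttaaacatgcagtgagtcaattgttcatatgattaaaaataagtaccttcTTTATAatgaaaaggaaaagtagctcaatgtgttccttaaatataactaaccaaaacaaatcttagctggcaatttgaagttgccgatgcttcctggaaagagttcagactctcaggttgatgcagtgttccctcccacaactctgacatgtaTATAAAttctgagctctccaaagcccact

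The 4 windows differed in base composition. FN1 held 32 CpG dinucleotides and 76.4% G and C, COL6A2 held 28 and 79.6%, COL6A3 held 3 and 56.0%, and POSTN held 1 and 36.4%. The median over the 35116 windows of the table was 11 CpG. FN1 thus had more CpG than 90.5% of all windows and POSTN more than 6.06%. FN1 had a TGACGTCA match whose first base lay 183 bases before the start and a CCAAT match at 162. A TGACGTCA match was present in 1.65% of all windows and a CCAAT match in 32.0%. COL6A2 had a TATAAA match at 32 and POSTN at 29, with another in POSTN, on the opposite strand, at 182. TATAAA occurred in 10.7% of windows. COL6A3 had no match to these motifs. The GC box GGGCGG, not capitalised, was found 6 times in FN1 and 4 times in COL6A2, with both strands searched and overlapping matches counted, and in 42.6% of all windows. A match describes the sequence and is not a binding site.

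**Figure D1:**
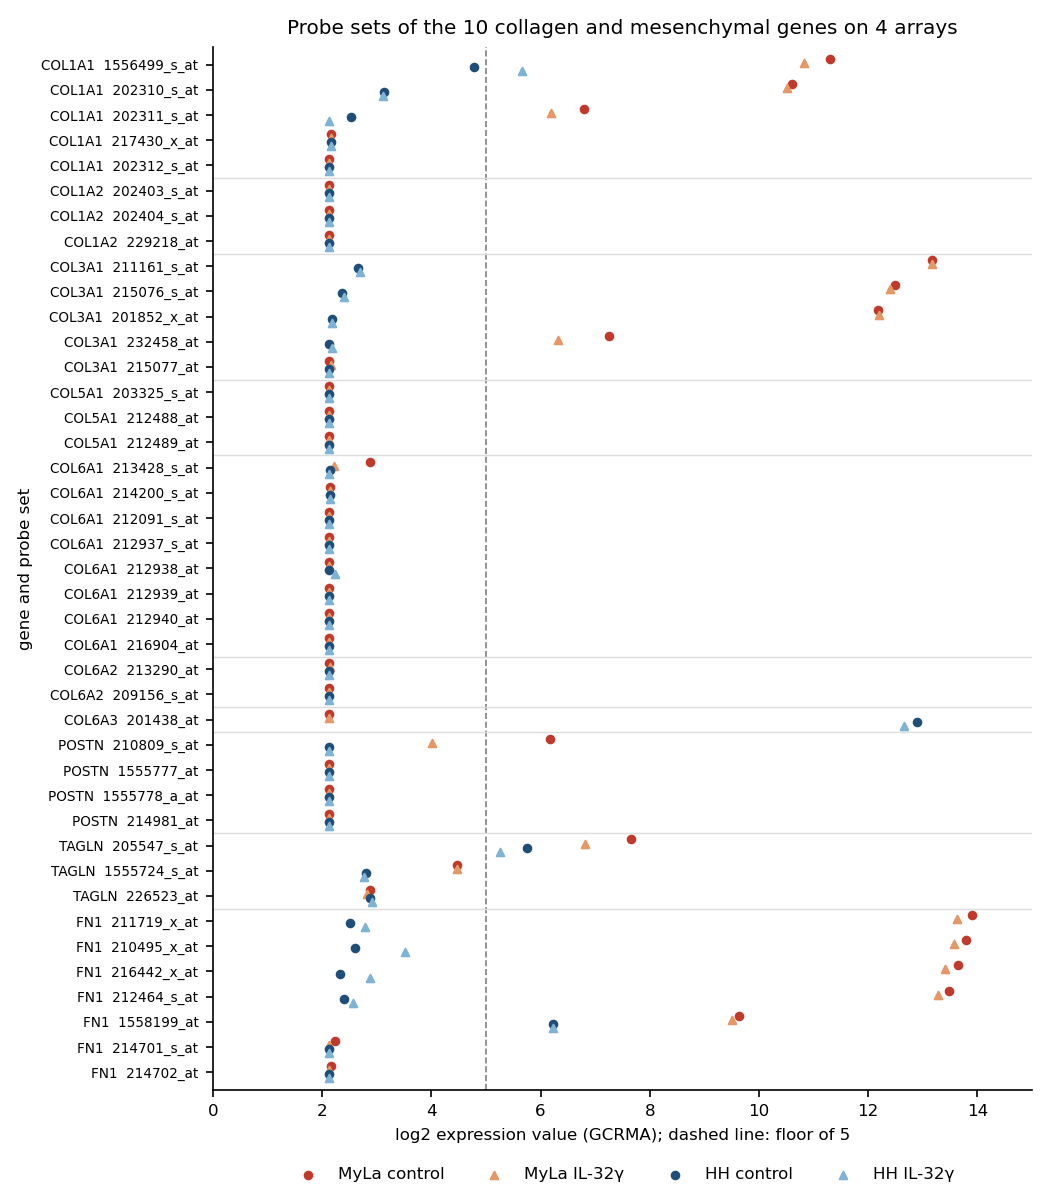
The log2 expression value of each of the 41 probe sets of the 10 genes is plotted along the horizontal axis, with 1 point per array (red and orange for MyLa, dark and light blue for HH, circles for control and triangles for IL-32γ) and a dashed line at the floor of 5. COL1A1, COL3A1 and FN1 hold red and orange points up to 13.90, COL6A3 holds blue points at 12.90 and 12.65, and the rows of COL1A2, COL5A1, COL6A1 and COL6A2 lie to the left of the floor.

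Among the fibrillar collagens, COL3A1, the sole chain of type III collagen, gave values far above the floor in MyLa. Probe set 211161_s_at read 13.16 in MyLa both without and with IL-32γ, 2.65 in untreated HH and 2.69 in treated HH. Probe set 215076_s_at read 12.49 and 12.39 in MyLa and 2.36 and 2.41 in HH. Probe set 201852_x_at read 12.19 and 12.20 in MyLa and 2.18 on both HH arrays. In these probe sets both HH arrays lay below the floor. A fainter probe set, 232458_at, read 7.24 and 6.32 in MyLa and 2.13 and 2.18 in HH, while 215077_at stayed at 2.13 to 2.16 on all 4 arrays. Probe sets of 1 gene read parts of the same transcripts, so they are not separate evidence, and their levels cannot be set against each other.

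Against HH, COL3A1 was higher in MyLa by at least 287-fold by 211161_s_at, at least 174-fold by 215076_s_at and at least 146-fold by 201852_x_at (limma adjusted p = 1.38e-04 for each). These folds are bounds because HH values were set to the floor of 5. These probe sets and 232458_at passed the filter of 5 or more on at least 2 arrays only with the MyLa arrays. They therefore had to differ. Each line's 2 arrays, one per treatment, served as its replicates, so the p-values measure only the spread between these arrays, which includes any IL-32γ difference and may otherwise be technical. The fit had 2 residual degrees of freedom and covered 25273 probe sets. Of these, 18.2% were called higher in MyLa and 16.9% higher in HH at an adjusted p under 0.05 and 2-fold or more. By 232458_at COL3A1 was higher by at least 3.44-fold (limma adjusted p = 0.0228). Without the HH control array or without the HH IL-32γ array, limma's adjusted p for this probe set was 0.208 and 0.214, and with a floor of 6 it was 0.139.

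COL1A1, the alpha 1 chain of type I collagen, was likewise higher in MyLa. Probe set 202310_s_at read 10.61 in untreated and 10.50 in treated MyLa, and 3.14 and 3.11 in HH. Probe set 1556499_s_at read 11.30 and 10.82 in MyLa, and 4.78 and 5.66 in HH. Probe set 202311_s_at read 6.80 and 6.20 in MyLa and 2.52 and 2.13 in HH. Probe sets 202310_s_at and 202311_s_at passed the filter only with the MyLa arrays, so they had to differ. Only 1556499_s_at crossed the floor in HH, with IL-32γ alone, so it too needed a MyLa array to pass the filter. Against HH, MyLa was higher by at least 47.1-fold by 202310_s_at (limma adjusted p = 1.53e-04). By 1556499_s_at the difference was 5.73 ± 0.32 (SE, log2; limma adjusted p = 0.0011) with the HH control value raised to the floor, and 5.84 without the floor. By 202311_s_at it was at least 2.83-fold (limma adjusted p = 0.0141). That call was lost with a floor of 6 (adjusted p = 0.160 in limma) and without the HH control or HH IL-32γ array (0.164 and 0.167 in limma). The other 2 probe sets of COL1A1, 202312_s_at and 217430_x_at, read 2.13 and 2.17 on every array, MyLa included, so the probe sets of this gene disagreed on whether it was measured at all.

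COL1A2, the alpha 2 chain that usually joins COL1A1 in type I collagen, read 2.13 by each of its 3 probe sets on all 4 arrays. MyLa thus had measured values for one chain of type I collagen and none above the floor for the other. COL5A1, a chain of type V collagen, also read 2.13 by 3 of 3 probe sets on all arrays. No difference between lines or with IL-32γ can be read from values at the lowest level of the array.

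Type VI collagen chains behaved differently. COL6A3, measured by the single probe set 201438_at, read 12.90 in untreated and 12.65 in treated HH, and 2.13 on both MyLa arrays. It was higher in HH by at least 219-fold (limma adjusted p = 1.38e-04) after the floor. This probe set passed the filter only with the HH arrays, so it had to differ. COL6A1 had 8 probe sets, all below the floor, the highest value being 2.87 on the MyLa control array by 213428_s_at. COL6A2 had 2 probe sets, both between 2.13 and 2.15. HH therefore had a high value for 1 of the 3 chain genes of type VI collagen among the members and none above the floor for its partners.

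FN1, the fibronectin gene, was high in MyLa by 5 of its 7 probe sets. Probe set 211719_x_at read 13.90 in untreated and 13.63 in treated MyLa, and 2.51 and 2.78 in HH. Probe set 210495_x_at read 13.80 and 13.57 in MyLa and 2.59 and 3.52 in HH. Probe set 216442_x_at read 13.65 and 13.40 in MyLa and 2.32 and 2.88 in HH. Likewise, 212464_s_at read 13.48 and 13.28 in MyLa and 2.41 and 2.56 in HH. In each of them both HH values lay below the floor. They passed the filter only with the MyLa arrays, so they had to differ. The excess in MyLa was at least 434-fold by the first of these, 412-fold by the next, then 369-fold, and 334-fold by 212464_s_at (limma adjusted p = 1.38e-04 for each). Without the floor and filter the adjusted p in limma was 0.0032 to 0.0151.

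One FN1 probe set gave a measured value in HH. By 1558199_at FN1 read 9.63 and 9.51 in MyLa and 6.23 and 6.22 in HH, a difference of 3.34 ± 0.11 (SE, log2; limma adjusted p = 3.49e-04), which is 10.2-fold. The size of the FN1 difference therefore depends on the probe set, since the others read HH below the floor. The remaining FN1 probe sets, 214701_s_at and 214702_at, read 2.13 to 2.23 on all arrays.

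TAGLN, which encodes transgelin, an actin-binding protein of smooth muscle and of contractile fibroblasts, was the only gene other than FN1 with a probe set above 5 on all 4 arrays. Probe set 205547_s_at read 7.65 in untreated and 6.81 in treated MyLa, and 5.76 in untreated and 5.26 in treated HH. Both MyLa values lay above both HH values, as in 39.6% of all probe sets tested, and the HH values were close to the floor. The difference of 1.72 ± 0.38 (SE, log2; limma adjusted p = 0.0286) kept its direction with any 1 array left out, at 1.30 to 2.15, but the call was lost each time (limma adjusted p from 0.0757 to 0.238). Without the floor and filter the difference was the same and limma's adjusted p was 0.182. Of the other probe sets, 1555724_s_at read 4.47 and 4.46 in MyLa and 2.81 and 2.76 in HH, and 226523_at read 2.82 to 2.92 throughout.

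POSTN, which encodes periostin, a matrix protein made by fibroblasts that binds integrins, passed the floor once. Probe set 210809_s_at read 6.17 in untreated and 4.01 in treated MyLa, and 2.13 on both HH arrays. It reached 5 on 1 array only and was not tested between lines. Its other 3 probe sets read 2.13 on all arrays.

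In all, 14 of the 41 probe sets passed the filter of 5 or more on at least 2 arrays, 13 of them were called higher in MyLa and 1 higher in HH. The 13 belong to COL1A1, COL3A1, FN1 and TAGLN. Of the 13, 11 would not have passed the filter without the MyLa arrays. In 10 of these both HH arrays lay below 5, so they had to differ. The number called is no support for a difference. Both MyLa arrays lay above both HH arrays in 13 of the 14 and in 39.6% of all probe sets tested, but the filter largely fixed this order in the members and nothing is read from it. In 10 probe sets, all of COL1A1, COL3A1 and FN1, both MyLa arrays were at 5 or more and both HH arrays below 5, a pattern of 7.14% of all probe sets at 5 or more on any array. COL6A3 had the reverse pattern, shared by 6.15%. On the control arrays alone, 13 of the tested probe sets were higher in MyLa and 1 higher in HH by 2-fold or more, without a test. The same filter chose these probe sets, so this count is no separate support.

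**Figure D2:**
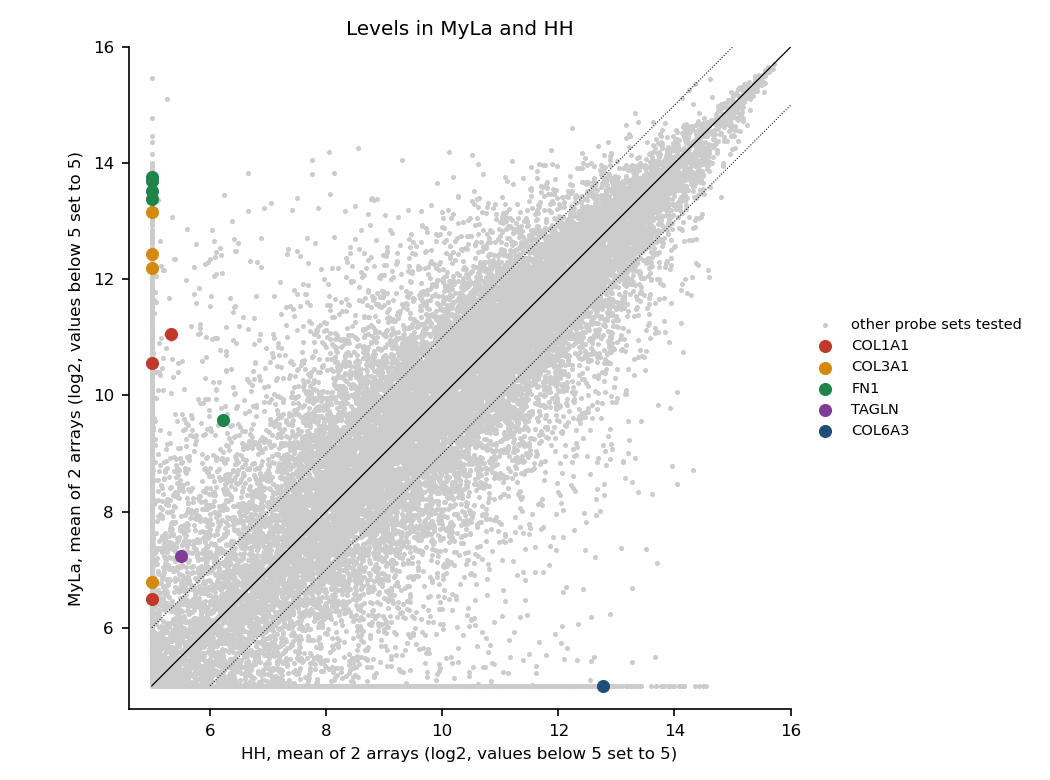
Each point is a probe set in the line comparison, placed by its mean over the 2 HH arrays (horizontal) and the 2 MyLa arrays (vertical) in log2 units after values below 5 were set to 5. The solid line marks equal levels and the dotted lines 2-fold. COL3A1 and FN1 lie on the left edge at up to 13.76, apart from FN1 by 1558199_at (6.2 in HH, 9.6 in MyLa). COL6A3 lies on the lower edge at 12.77.

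The genes whose 4 values followed FN1 most closely were found by the root mean square difference from 211719_x_at, after subtraction of each probe set's own mean, over 4 arrays and 11253 genes. They were CTNNA1, which encodes alpha-catenin (0.034), the T cell costimulator ICOS (0.099), the monoamine oxidase MAOA (0.11), TXNIP (0.12) and RAI14 (0.13). ICOS read 13.69 and 13.68 in MyLa and 2.21 and 2.13 in HH, as a gene that is high in one line and below the floor in the other. With 4 arrays of 2 lines this likeness amounts to the line difference and its size.

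With IL-32γ in MyLa, TAGLN and POSTN were lower by 1.5-fold or more by the brightest probe set of the gene, POSTN as a bound. By that measure COL1A1, COL3A1 and FN1 differed by less. Over all genes, 7.65% were lower and 7.77% higher by their brightest probe set. In MyLa, 14 member probe sets reached 5 on at least 1 of the 2 arrays, and 4 of them (28.6%) were lower by 1.5-fold or more with IL-32γ, 1 each of COL1A1, COL3A1, POSTN and TAGLN. None was higher. Over all probe sets measured in MyLa, 9.14% were lower and 11% higher by 1.5-fold or more. The 4 had control values of 6.17 to 7.65, and they were all 4 of the member probe sets from 6 to under 8 on the MyLa control array. Among all probe sets in that range 19% were lower. Of the 14, 13 lay below 0, against 55.5% of all probe sets, and the median was -0.24, against -0.046. The 14 belong to 5 genes on 1 pair of arrays, so they are not separate evidence. With probe sets that can match several transcripts left out, 1 of 2 was lower.

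Where a gene had several probe sets in MyLa, they gave different sizes. COL3A1 differed by -0.92 by 232458_at, the faint probe set, but by -0.0013, -0.10 and 0.0077 by the 3 bright ones. COL1A1 differed by -0.60 by 202311_s_at, by -0.48 by 1556499_s_at and by -0.11 by 202310_s_at. In neither gene did the brighter probe sets reach 1.5-fold. The 5 measured probe sets of FN1 were all slightly lower with IL-32γ, from -0.27 by 211719_x_at to -0.11 by 1558199_at, and none reached 1.5-fold. TAGLN differed by -0.85, from 7.65 to 6.81. POSTN differed by -1.17 against the floor, a bound, since its IL-32γ value lay below 5. Its unfloored difference was -2.16, and with a floor of 6 it was -0.17. On the same 2 arrays the array's control probe set at the 5′ end of ACTB was higher by 1.69 with IL-32γ and that of GAPDH by 0.68, while their 3′ partners differed by -0.075 and 0.043. Their part in the members' differences was not tested.

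In HH, 4 member probe sets were measured. COL6A3 differed by -0.25 with IL-32γ and FN1 by -0.0071 by 1558199_at. TAGLN differed by -0.49, from 5.76 to 5.26. COL1A1 by 1556499_s_at crossed the floor, from 4.78 to 5.66, a difference of at least 0.66 after the floor. It was the 1 member probe set past 1.5-fold in HH, where 5.43% of all probe sets were higher and 4.02% lower. With a floor of 6 it was no longer measured in HH. The 5′ ACTB control probe set was higher by 0.89 in HH with IL-32γ. It also differed between the lines, at 10.12 and 11.81 in MyLa and 12.69 and 13.58 in HH. Its 3′ partner read 15.07 to 15.27 on the 4 arrays. The part of this in the differences between lines was not tested.

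With the lines as replicates and the line as a block in limma, no member was called. At 1 residual degree of freedom, 0 of 25273 probe sets reached an adjusted p under 0.05, and 2561 (10.1%) had an unadjusted p under 0.05. Among the members TAGLN alone had one, with a mean difference of -0.67 ± 0.16 (SE, log2), lower in 2 of 2 lines (limma adjusted p = 0.484). A difference between the responses of the lines could not be tested, since each line had 1 array per condition.

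**Figure D3:**
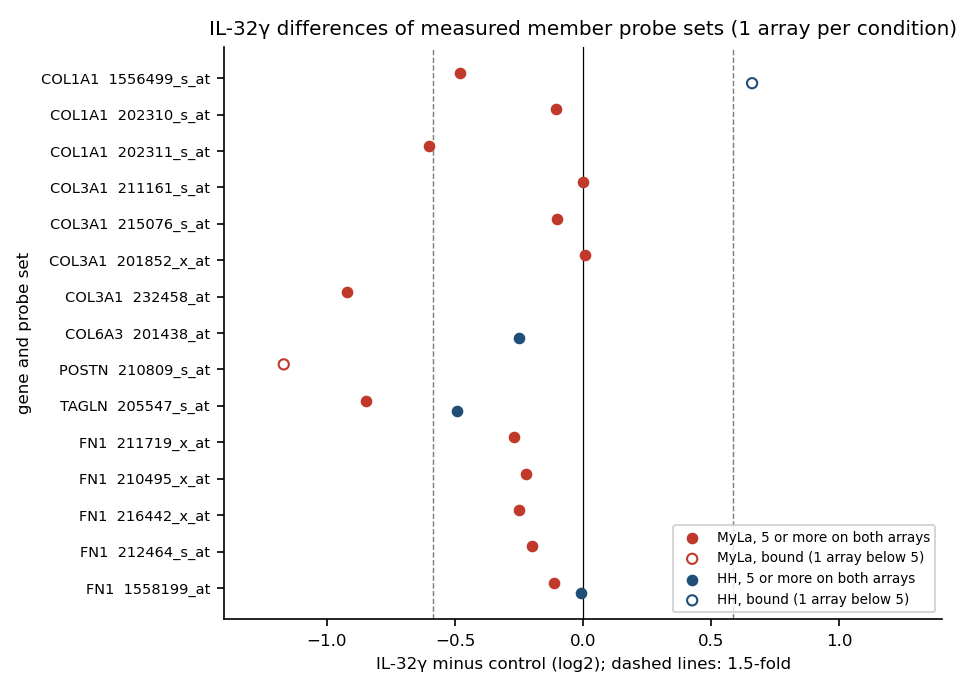
The IL-32γ minus control difference (log2, horizontal axis) is plotted for the 15 member probe sets that reached 5 on at least 1 array, red for MyLa and blue for HH, with open symbols for bounds and dashed lines at 1.5-fold. Most MyLa points lie between -0.60 and 0.0077, POSTN (-1.17), COL3A1 by 232458_at (-0.92) and TAGLN (-0.85) lie furthest left, and COL1A1 in HH (0.66) is the only point past 1.5-fold on the right.

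Markers of cell types were read beside the members. Of 13 T cell markers with a probe set, 7 were at 5 or more on both MyLa arrays and 10 on both HH arrays, among them CD3D (11.87 and 12.28 in MyLa, 12.45 and 12.50 in HH). CD3E, CD4 and CD5 were below 5 in MyLa (2.13 to 2.27). Of 14 fibroblast markers, 3 reached 5 on any array: FBN1, CDH11 and S100A4. FBN1 and CDH11 were called higher in MyLa, CDH11 with 8.33 and 7.75 against 2.13 on both HH arrays. CDH11 passed the filter only with the MyLa arrays, so it had to differ. S100A4 was called higher in HH (14.13 and 14.14, against 12.14 and 11.70 in MyLa). PDGFRB, DCN, LUM, THY1, PDPN and FBLN1 read 2.13 on all 4 arrays, PDGFRA read 2.14 to 3.25 and FAP 2.20 to 4.36. The summed floored level of the 14 was 86.4 and 84.9 in MyLa and 83.9 and 83.5 in HH. In these sums 11 of the 14 stand at the floor on every array, so near-equal totals do not show like levels. Of 9 smooth muscle and pericyte markers 6 were measured, ACTA2 (13.38 and 13.24 in MyLa, 10.77 and 10.82 in HH) and MYH11 being called higher in MyLa and MCAM in HH. The 8 endothelial and 5 B cell markers were all below 5. Keratinocyte and epithelial markers included CDH1, at 12.97 and 12.98 in MyLa and 2.62 on both HH arrays, with 3 of 9 measured. KRT8, 1 of these 3, read 5.09 on all 4 arrays, just above the floor. Macrophage markers had 2 of 7 measured, ITGAM in MyLa (9.00 and 8.73) and MSR1 in HH (5.99 and 5.97). In RNA of a whole culture, fewer cells that express a gene and less RNA per cell cannot be told apart.

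Genes related to the members were taken from 9 lists, with the brightest probe set standing for a gene. Over all 11010 genes tested, 18.6% were called higher in MyLa and 16.6% higher in HH, and the median line difference was 0.025. Other fibrillar collagens had 2 of 7 genes tested, both higher in MyLa: COL11A2, a chain of type XI collagen (11.04 and 10.60 against 5.47 and 5.02), and COL5A2, a chain of type V collagen, by at least 16.7-fold (9.38 and 8.74 against 3.27 and 3.25). COL5A2 was thus measured in MyLa without its partner COL5A1, and it is the gene next to COL3A1 on chromosome 2. Basement membrane and other collagens had 6 of 26 genes tested, 3 higher in MyLa, among them COL15A1 (at least 22.0-fold), and 2 higher in HH, the type IV chains COL4A6 (at least 40.6-fold) and COL4A5 (at least 10.9-fold). The other called collagens of this list were COL7A1, the chain of anchoring fibrils, higher in MyLa by at least 6.25-fold, and COL9A2, higher in MyLa by 3.21-fold.

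Part of the machinery that makes collagen was measured. Of 34 genes for collagen synthesis and processing with a probe set, 22 reached 5 on both MyLa arrays and 18 on both HH arrays, and 12, among them the lysyl oxidase LOX, stayed below 5 on all 4. The 22 were tested, and 3 were higher in MyLa, 3 higher in HH and 16 not called, with a median difference of 0.13. P4HA2, a prolyl hydroxylase subunit, read 9.82 and 9.22 in MyLa and 2.13 in HH, at least 22.9-fold higher. The chaperone SERPINH1, which is specific to collagens, read 5.85 on both MyLa arrays and 2.20 on both HH arrays, a difference of at least 1.80-fold (limma adjusted p = 0.0069) that was not called because the bound lies under 2-fold. SERPINH1 passed the filter only with the MyLa arrays, so it had to differ and its p-value is no support for a difference. FKBP14, a prolyl isomerase, and LOXL3, a lysyl oxidase that crosslinks collagen, were higher in HH, with MyLa minus HH differences of -4.56 and -4.32 (log2). SEC24D, a coat protein for export of procollagen, was higher in MyLa by 6.79-fold and the prolyl isomerase PPIB by 2.55-fold. P4HB, the partner of the prolyl hydroxylases, read 13.02 to 13.66 on the 4 arrays and was not called.

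Receptors for collagen and fibronectin had 11 genes tested of 22, with 4 higher in MyLa and 5 higher in HH. MRC2, which takes up collagen into cells, was higher in MyLa by at least 68.9-fold (10.98 and 11.23 against 2.89 and 2.81). ITGA10, an integrin subunit for collagen, read 7.84 and 6.69 in MyLa and lay below the floor in HH. In HH the integrin subunit ITGB7, which pairs with ITGA4 to bind fibronectin and adhesion molecules, was higher by 53.7-fold, ITGB1 by 2.63-fold and the collagen receptor kinase DDR2 by 3.83-fold. The syndecan SDC4 was higher in MyLa by 6.17-fold, and the collagen III receptor ADGRG1 higher in HH by at least 10.1-fold. CD44 read 13.98 to 14.06 on the 4 arrays. Fibroblast matrix glycoproteins had 6 of 29 genes tested, 4 higher in MyLa, among them THBS2 (at least 11.6-fold), LTBP1 (3.70-fold) and FBN1 (2.22-fold), and 1 higher in HH, MFAP4 (at least 7.08-fold). SPARC and BGN, common companions of type I collagen, read 2.13 on all arrays.

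Smooth muscle and actin-binding genes had 11 of 19 tested, 5 higher in MyLa and 1 in HH. TPM2, a tropomyosin, was higher in MyLa by at least 289.7-fold (12.79 and 13.57 against 2.21 and 2.16). ACTN1 was higher in MyLa by at least 8.15-fold, and the calponin CNN2 higher in HH by 2.06-fold. VIM, the intermediate filament of mesenchymal cells and lymphocytes, read 14.36 to 14.87 and was not called. Mesenchymal transcription factors had 9 of 25 tested, 3 higher in MyLa and 3 in HH. TWIST1 read 12.00 and 12.35 in MyLa and 8.18 and 7.64 in HH, and the paired coactivators went opposite ways, YAP1 higher in MyLa by 2.82 (log2) and WWTR1 higher in HH by at least 56.3-fold. MRTFA, a coactivator of serum response factor, was higher in HH by 3.17-fold, while its relative MRTFB (12.57 to 13.05) and ZEB1 (12.32 to 12.65) were not called. TGF-beta-inducible genes had 6 of 17 tested, 3 higher in MyLa, SMAD7 (at least 16.2-fold), ID2 and SKIL, and none in HH, while BHLHE40 read 12.35 to 13.10 and was not called. Matrix proteases and inhibitors had 6 of 25 tested, with CTSB higher in MyLa by 6.30 (log2), and MMP16 (at least 173-fold) and ADAM12 higher in HH. All calls of these lists come from the same limma fit. The genes whose fold is given as at least, and ITGA10, passed the filter only with the arrays of their higher line. They therefore had to differ, and the counts of calls are no support for a difference.

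With each gene of the 9 lists counted once, 11 of 73 measured in MyLa (15.1%) were lower with IL-32γ by 1.5-fold or more and 3 (4.11%) higher, against 7.65% and 7.77% of all genes. In HH, 2 of 62 were lower and 1 higher, against 4.46% and 1.14%. In MyLa the log2 difference was -0.63 for COL5A2, -1.15 for ITGA10, -0.63 for ACTN1, which encodes an alpha-actinin, and -1.19 against the floor for LTBP2. It was -0.76 for LOXL2, -0.74 for the integrin subunit ITGA4, -0.88 against the floor for ASPN and -0.98 against the floor for the protease MMP12. It was 0.78 for TPM2, 0.98 for ID2 and 1.64 for the collagen glycosyltransferase COLGALT1. LTBP2, LOXL2, ASPN and MMP12 read only 5.88 to 6.19 on the MyLa control array. The shares were not matched for level. Among all probe sets from 6 to under 8 on that array 19% were lower. LOXL2, ASPN and MMP12 lay below that range and COL5A2, ITGA4 and ACTN1 above it. The 19% also counts probe sets, not genes, so it is not a matched background for this list. Of 22 collagen synthesis genes measured in MyLa, 4 were lower and 1 higher. In HH, 1 of 18 was lower, SEC24D (-0.66 in HH and -0.65 in MyLa). Elsewhere in HH, MYH11 differed by -0.64 and ADAM12 by 0.70. Fibroblast matrix genes had 2 of 6 lower in MyLa and a median of -0.37, against -0.068 over all genes.

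**Figure D4:**
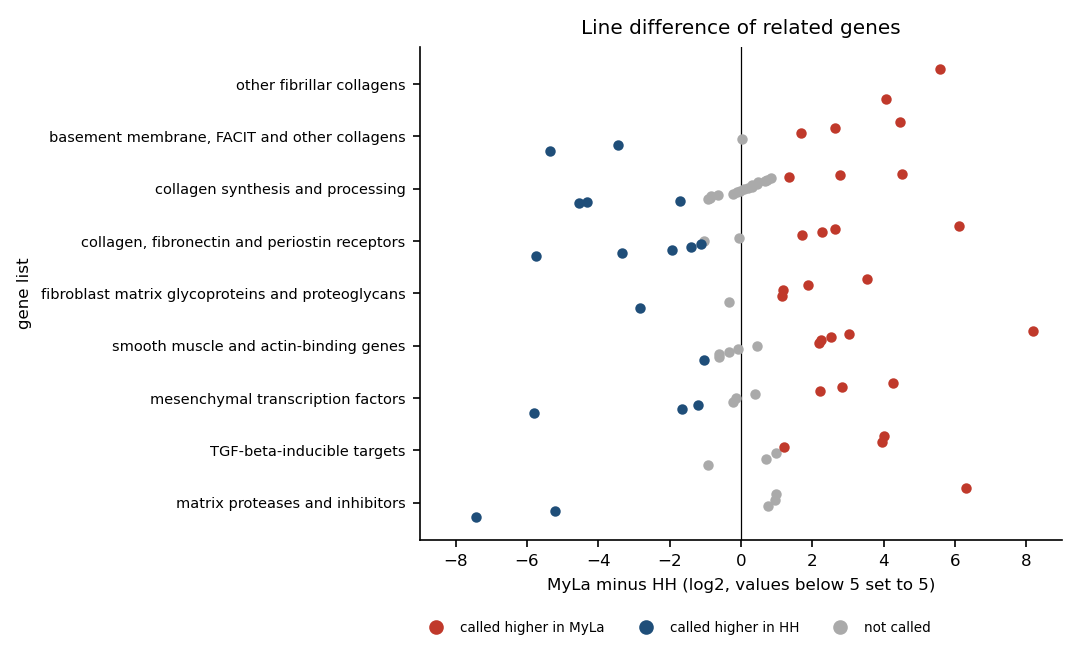
The MyLa minus HH difference (log2, values below 5 set to 5, horizontal axis) is plotted for each tested gene of the 9 lists, red where called higher in MyLa, blue where called higher in HH and grey where not called. Both fibrillar collagens lie to the right at 4.06 and 5.58, most collagen synthesis genes lie near 0, and the receptor list spreads from -5.75 to 6.11.

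The position of the members was also looked at, with gene order from RefSeq. COL1A1, COL3A1, FN1 and TAGLN, the members higher in MyLa, had 8 adjacent protein-coding genes, of which 7 were tested and 3 called higher in MyLa, against 18.6% of all genes: GULP1 and COL5A2 on either side of COL3A1, and SGCA beside COL1A1. Their values were 10.68 and 10.80 in MyLa against 5.06 and 4.03 in HH for GULP1, and 8.32 and 8.15 against 2.29 and 2.31 for SGCA. COL5A2 and SGCA were below 5 on both HH arrays and passed the filter only with the MyLa arrays. These neighbours had to differ, so nothing is read from the share called. The neighbours of FN1 and TAGLN were not called. PCBP3, beside COL6A1, which was below the floor, was also higher in MyLa (9.42 and 9.82 against 8.16 and 7.36, limma adjusted p = 0.0196). Beside COL6A3, MLPH read 12.27 and 12.10 in HH and 2.19 on both MyLa arrays, while COPS8 on its other side was not called (12.76 and 12.58 in MyLa, 12.47 and 12.29 in HH). MLPH passed the filter only with the HH arrays, so it had to differ.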

How the data were processed

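RNA of 4 cultures was hybridised to 1 array each. The authors deposited log2 values made with GCRMA, a method of background correction, normalisation and probe summary, per the submitters' processing notes. Its version is not given in the sources used here. Low values were set to 5. Within a line the difference is IL-32γ minus control, for probe sets reaching 5 in either condition, counted at 1.5-fold. Lines were compared with limma 3.58.1 (R 4.3.3), two-sided, over the 25273 probe sets that reached 5 on 2 or more arrays, with Benjamini-Hochberg adjusted p under 0.05 and 2-fold, and IL-32γ across lines with the line as a block. Array control probe sets (62) were left out. Both fits were tested on simulated data. Symbols came from the array annotation, updated through RefSeq, which matched 41043 of 41097. Scanner files were not used here. The members and lists were chosen with earlier results of these data known.

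The rule for named genes took every member and, from each list, the brightest gene per line, up to 2 called genes per direction and up to 2 genes past 1.5-fold per line and direction, and 5 genes most like FN1. Named outside the rule, with values known, were SERPINH1, LOX, DDR2, ITGB1, SPARC, BGN, SKIL, markers and neighbours, and the motifs and the background from 6 to under 8 were likewise picked after seeing the data. Other settings tried were a floor of 4, of 6 or none, quantile or median scaling, no _s_at or _x_at probe sets, other fold thresholds, an intensity trend, another block, each array left out, and the control arrays alone. Software was Python 3.11.15 with pandas 2.3.3, numpy 2.4.6 and matplotlib 3.10.9.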

Additional observations from a re-analysis of the deposited data

Results flagged for a closer look

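COL1A1 by probe set 1556499_s_at moved in opposite directions with IL-32γ in the lines, -0.48 in MyLa (11.30 to 10.82) and at least 0.66 in HH, where the control value of 4.78 was raised to the floor of 5 and the IL-32γ value was 5.66. The HH difference exceeded the MyLa difference by at least 1.14 (log2) after the floor and by 1.36 without it. The difference was not tested, since each line had 1 array per condition. The other COL1A1 probe sets lay below 5 in HH on both arrays.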

How the results depend on the processing

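The labels number no replicates, so samples were paired only by line or by treatment, as blocks. The counts of member probe sets called between lines kept 13 in MyLa and 1 in HH with a floor of 4, without a floor, with quantile normalisation, median centring, no fold minimum, an intensity trend and the treatment as a block. With a floor of 6, 11 were called in MyLa. Leaving out 1 array gave 10 to 12 in MyLa and 1 in HH, and over all probe sets 1597 to 3472 higher in MyLa and 2028 to 3099 higher in HH, against 4599 and 4263. The lowest counts came without an HH array: 1728 and 2100 without the HH control array, and 1597 and 2028 without the HH IL-32γ array. Without probe sets named _s_at or _x_at, 2 members remained for MyLa by construction, with 3039 of all probe sets higher in MyLa. Without floor and filter all probe sets gave 2977 higher in MyLa and 2785 in HH.

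With IL-32γ in MyLa, 4 member probe sets lower became 1 at 2-fold and 1 without _s_at and _x_at probe sets. All probe sets at 2-fold were 1010 higher and 474 lower, against 2651 and 2212, and 1494 higher without _s_at and _x_at. In HH the 1 member higher became 0 with a floor of 6, without _s_at and _x_at probe sets and at 2-fold, and 2 without a floor. All probe sets in HH were 2114 higher and 1673 lower without a floor, 844 higher without _s_at and _x_at, and 333 and 150 at 2-fold, against 1294 and 958. Across lines, the 1 member at an unadjusted p under 0.05 became 0 with a floor of 6, without a floor, without _s_at and _x_at probe sets and with no block. Over all probe sets 1651 passed it without _s_at and _x_at and 89 with no block, against 2561. Other causes were not tested. Values below 5 carry no order.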
